A study of Macaca fascicularis and Mus musculus with 42 samples.

Results

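The enzymes that write, copy and remove DNA methylation were followed through the induction of germ cell-like cells from cynomolgus monkey (Macaca fascicularis) embryonic stem cells. Members were chosen by symbol: DNMT1 and UHRF1, DNMT3A, DNMT3B and DNMT3L, and TET1, TET2 and TET3. All 8 were found among the 26018 gene entries of the monkey table, and the 8 orthologs of the same symbols among the 34896 entries of the mouse table. The mouse-specific Dnmt3c was not analysed here.

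In mammals, cytosines in CpG pairs are methylated anew by DNMT3A and DNMT3B, whose activity the catalytically inactive DNMT3L can raise. After DNA replication UHRF1 recognises half-methylated CpGs and brings DNMT1 to them, so that the pattern is copied. TET1, TET2 and TET3 oxidise methylcytosine, which leads to its loss through replication or repair. Primordial germ cells are known for losing most of the methylation inherited from the embryo before sex-specific patterns are laid down.

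The series holds 42 bulk 3′-end RNA-seq libraries, 38 from monkey and 4 from mouse, each made from 1 ng of total RNA. The values are RPM, the reads of a gene scaled to the library's total. A 3′-end library counts transcript ends, and levels of different genes are not compared here. In bulk RNA, fewer cells that express a gene and less RNA per cell cannot be told apart.

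The monkey stem cell lines 656BTAG42 and 656BTAG63 carry the transgenes Blimp1-tdTomato and TFAP2C-EGFP, reporters of the germ cell regulators PRDM1 (also called BLIMP1) and TFAP2C. Every library of these lines used here came from 656BTAG42 except stem cell library 2, from 656BTAG63. The stem cells (ESC) are described as grown with 20 ng/ml bFGF and 2.5 nM IWR1. For induction, ESC aggregates received 200 ng/ml BMP4, 100 ng/ml SCF, 50 ng/ml EGF, 1000 U/ml LIF and 10 µM Y27632 in GMEM with 15% KSR (here GK15), or in Advanced RPMI with B27 (aRB27). Cells positive for both reporters are called BTAG, those labelled as single positive for the PRDM1 reporter BT, and those labelled as mid-positive for the TFAP2C reporter AG. ESC lines without these transgenes gave 5 libraries: 2 of CMK6 and 1 each of 656, 681F and 22. The mouse line R8 carries Blimp1-membraneVenus and Dppa3-ECFP; its germ cell-like cells were induced from epiblast-like cells in GK15 medium and taken on days 4 and 6, with 2 libraries each.

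Of 33 libraries of the monkey reporter lines, 24 were used and 9 of doubtful label were set aside by the selection rule. In 6 of these 9 the PRDM1 level contradicted the label: the set-aside ESC library had 252.51 RPM of PRDM1 and a GK15 day 6 BTAG library had 0.5 RPM. The 24 libraries comprised 4 of ESC, 15 of BTAG, 3 of BT and 2 of AG cells. GK15 BTAG cells were represented by 1 library each on days 2 and 4 and by 2 each on days 6, 8 and 10, and aRB27 BTAG cells by 2, 2 and 3 libraries on days 2, 4 and 6. No aRB27 library of day 8 or 10 was used. The labels do not say that libraries of a group came from separate cultures, so each p-value measures only the spread between these libraries.

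As recovered from the RPM steps, these 24 libraries held 1077000 to 6799000 reads, the 5 of ESC without transgenes 1099000 to 4065000 reads and the mouse libraries 2263000 to 2478000 reads. The summed level of 9 germ cell markers was 1784 to 2553 RPM in BTAG, 29.6 to 77.7 RPM in reporter ESC, 921.8 to 1252 RPM in BT and 94.0 to 324.3 RPM in AG cells. PRDM1 (117.65 to 318.24 RPM in BTAG) and TFAP2C (337.1 to 717.48 RPM) are among the 9. Their reporters define the gates, so the sums are in part set by the sort. SOX17, also listed as an endoderm gene, is part of these sums as well. It was 475.23 to 924.74 RPM in BT and 597.42 to 1190.07 RPM in BTAG cells. DPPA3, a defining germ cell marker, reached at most 2.26 RPM in BTAG cells. TFAP2C stood at 0.34 to 3.48 RPM in BT cells. PRDM1 stood at 11.14 and 0.90 RPM in AG cells.

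**Figure D1:**
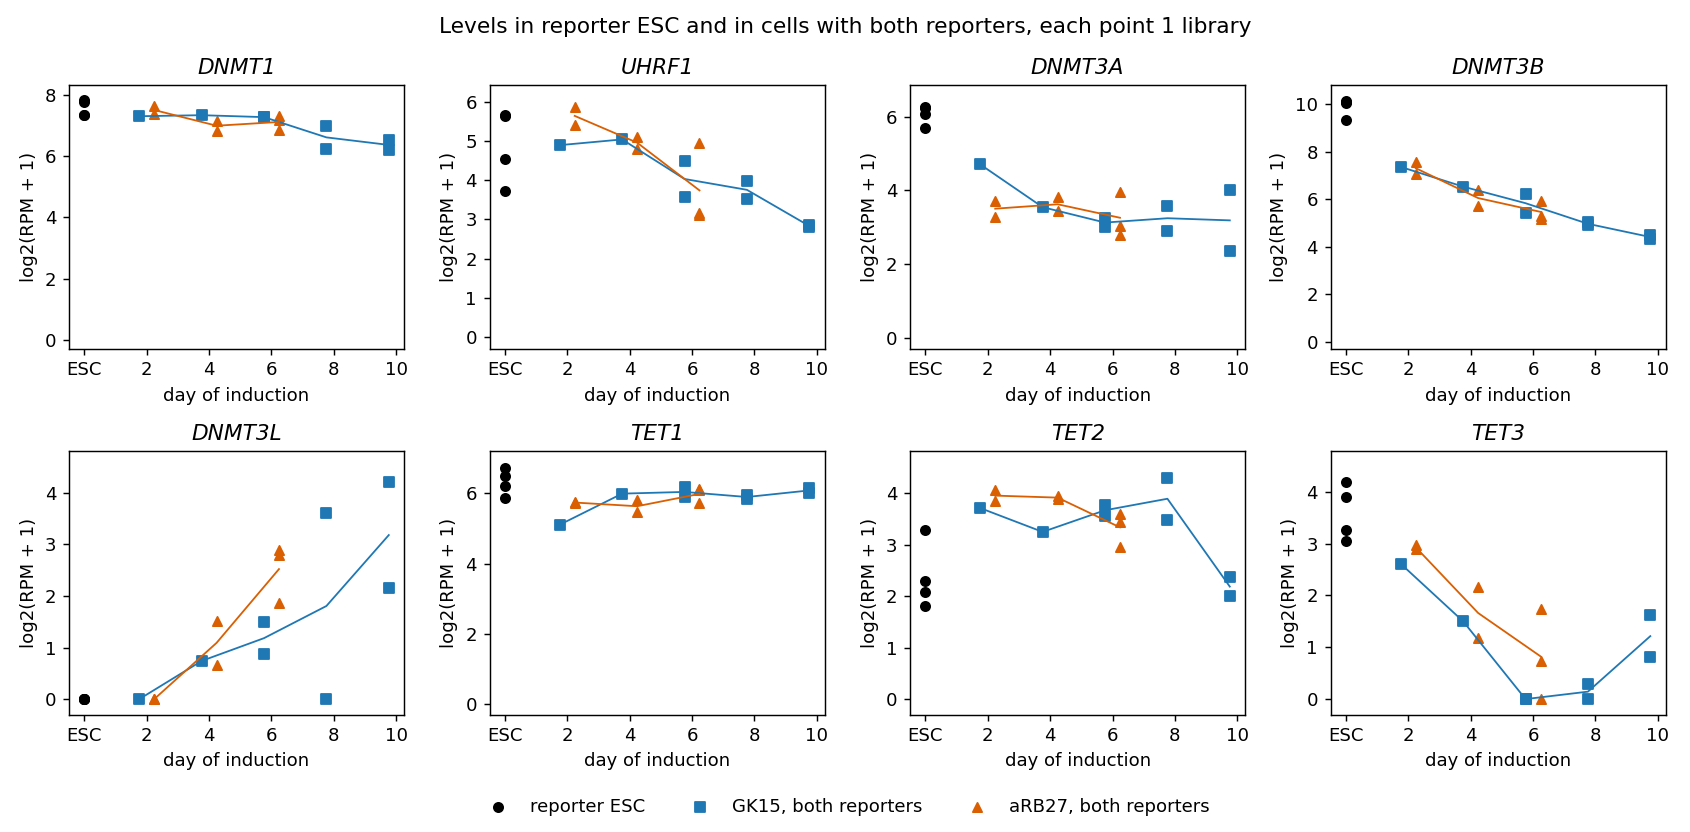
Levels of the 8 monkey genes as log2(RPM + 1) in each library of reporter ESC and of BTAG cells by day of induction, with GK15 and aRB27 libraries marked separately and lines joining the day means. DNMT3A, DNMT3B and TET3 are lower on every day of induction in the group means, DNMT3L is at 0 in ESC and highest on day 10, and TET1 shows no steady course.

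The de novo enzyme DNMT3B fell early and went on falling in BTAG cells. Its level in the 4 reporter ESC libraries was 1045.78, 1105.56, 1090.13 and 644.34 RPM (mean 971.5 ± 219.5 RPM, SD, n = 4). On day 2 it was 162.24 RPM in GK15 and 185.8 and 131.59 RPM in aRB27, and on day 4 it was 90.83 RPM in GK15 and 81.19 and 51.69 RPM in aRB27. Every day 2 and day 4 library was thus below every ESC library, and day 4 was below day 2 without overlap. On day 6 the GK15 libraries had 42.06 and 73.54 RPM and the aRB27 libraries 38.51, 34.59 and 59.53 RPM. In GK15 the level was 28.79 and 31.38 RPM on day 8 and 21.45 and 18.85 RPM on day 10. These last 4 libraries lay below all other BTAG libraries, at a mean of 25.12 ± 5.93 RPM or 2.59% of the ESC mean, 38.7-fold lower.

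Tests were run with limma on log2(RPM + 1) over 10701 genes, and a gene was called where the adjusted p was under 0.05 and the log2 difference at least 1. The DNMT3B difference from ESC was -2.57 ± 0.26 (SE) on day 2 (adjusted p = 6.67e-07), -3.61 ± 0.26 on day 4 (4.6e-09) and -5.21 ± 0.23 on GK15 days 8 and 10 (3.98e-12). On day 6 it was -4.07 ± 0.29 in GK15 (adjusted p = 3.64e-09) and -4.43 ± 0.25 in aRB27 (1.3e-10). All these comparisons share the same 4 ESC libraries. Within BTAG cells DNMT3B fell by 0.39 ± 0.04 log2 per day over days 2 to 10 (adjusted p = 7.19e-06, 15 libraries, with the medium as a covariate). Days 8 and 10 against day 6 in GK15 gave -1.15 ± 0.29, which missed the threshold (adjusted p = 0.0964).

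DNMT3A, the other de novo enzyme, had dropped by day 2 and then lay in a narrow range. ESC libraries had 76.19, 50.49, 66.81 and 74.35 RPM (66.96 ± 11.7 RPM, SD, n = 4). On day 2 the level was 25.1 RPM in GK15 and 8.76 and 12.18 RPM in aRB27. From day 4 on, the 12 BTAG libraries ranged from 4.15 to 15.08 RPM. No BTAG library reached the lowest ESC library. Taken by day over both media, the ranges of days 4, 6, 8 and 10 overlapped, while both GK15 day 6 libraries (7.08 and 8.44 RPM) lay below all day 4 libraries (9.79 to 13.08 RPM). The mean of BTAG day 2 was 15.4 RPM (4.36-fold below ESC), and that of GK15 days 8 and 10 was 9.18 RPM (7.30-fold below). The log2 difference from ESC was -1.96 ± 0.39 on day 2 (limma, adjusted p = 0.00114), -2.48 ± 0.39 on day 4 (7.05e-05), -2.94 ± 0.43 on GK15 day 6 (2.77e-05), -2.81 ± 0.38 on aRB27 day 6 (8.98e-06) and -2.85 ± 0.35 on GK15 days 8 and 10 (1.97e-06). Its slope within BTAG cells, -0.12 log2 per day, was not called (adjusted p = 0.145). Without GK15 day 10 library 2, which had 15.08 RPM, the slope was -0.18 (adjusted p = 0.0291).

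DNMT3L, the catalytically inactive partner of the de novo enzymes, was detected mainly from day 6 on. It was listed at 0 in all 4 reporter ESC libraries, where a count of 0 allows up to 0.441, 1.29, 1.32 and 1.62 RPM (3 reads, counting error only). No read was seen on day 2 either, with limits of 1.395 RPM in GK15 and of 1.75 and 1.46 RPM in aRB27. The GK15 library of day 4 had 4 reads (0.67 RPM), and the aRB27 libraries of day 4 had 1 and 3 reads (0.58 and 1.87 RPM). Single day 2 libraries therefore could not be told from the day 4 level at this depth. For the ESC libraries together the limit was 0.2265 RPM, below every day 4 value, though those values rest on 1 to 4 reads each. The day 4 difference from ESC, +0.92, was not called (limma, adjusted p = 0.348). On day 6 the aRB27 libraries had 14, 11 and 4 reads (5.92, 6.45 and 2.65 RPM) and the GK15 libraries 2 and 3 reads (0.83 and 1.81 RPM). GK15 libraries of day 8 had 0 and 51 reads (0 and 11.19 RPM, the 0 allowing up to 2.79 RPM), and those of day 10 had 5 and 23 reads (3.46 and 17.35 RPM). The libraries of a day thus differed widely, and 1 library of GK15 day 8 was at 0 as in ESC.

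Against 3 reads over the 4 ESC libraries together (0.2265 RPM), DNMT3L was at least 22.1-fold higher on aRB27 day 6 (mean 5.01 ± 2.06 RPM, SD, n = 3) and at least 35.3-fold higher on GK15 days 8 and 10 (mean 8.0 RPM, n = 4). These bounds allow for the ESC count alone and take the means as they stand, though the late libraries ranged from 0 to 17.35 RPM. The late bound was 21.6-fold without GK15 day 10 library 2 (mean 4.88 RPM). Without ESC library 1, the deepest, 3 reads are worth 0.465 RPM, and the bounds were 10.8-fold and 17.2-fold. These values without single libraries were added after seeing the data.

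DNMT3L passed the filter on low values, 10 RPM in at least 2 libraries, only through the 2 GK15 libraries with 11.19 and 17.35 RPM, and without either of them it was not in the fit. Its differences on GK15 days 8 and 10 and its slope are therefore given as a description. In the filtered fit the adjusted p was 0.00553 for aRB27 day 6, 0.00246 for GK15 days 8 and 10 and 0.00836 for the slope of +0.45 ± 0.12 log2 per day (limma). Fitted with no filter, where DNMT3L needs no late library to enter, the adjusted p was 0.0217, 0.0109 and 0.00754. With a pseudocount of 10 the differences were +0.58 and +0.74, under the size threshold. The aRB27 day 6 difference was +2.38 and not called among the libraries coded MS162 alone (adjusted p = 0.116). GK15 day 6 was not called (adjusted p = 0.262), and aRB27 against GK15 over days 2, 4 and 6 gave +0.56 ± 0.57 (adjusted p = 0.972).

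**Figure D2:**
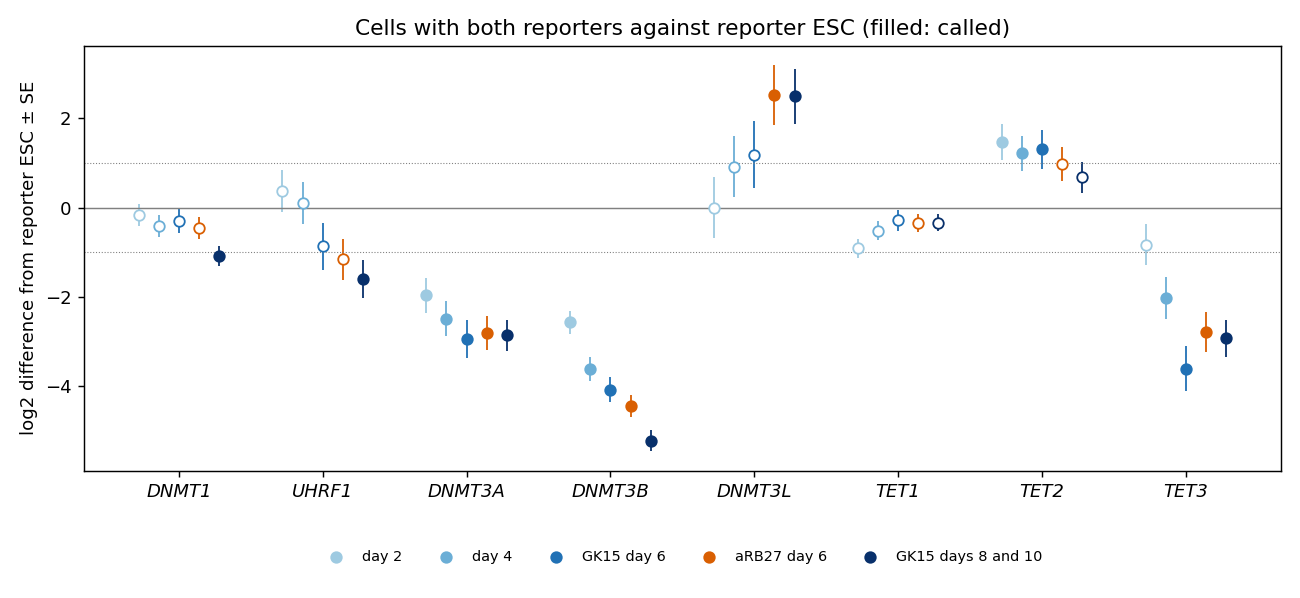
Log2 difference from reporter ESC (4 libraries) for the 8 genes in BTAG cells on day 2, day 4, day 6 in each medium and GK15 days 8 and 10, with the standard error as the bar, filled points for called differences and dotted lines at -1 and 1. DNMT3B descends from -2.57 to -5.21, DNMT3A levels off near -2.85, and the TET2 points stand above 0. The last TET2 point pools days 8 and 10, of which day 10 (3.02 and 4.15 RPM) lay within the ESC range. The DNMT3L points rest on an ESC level of 0 and depend on the pseudocount, as do the sizes of the TET3 points.

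The copying pair DNMT1 and UHRF1 were not called against ESC on days 2, 4 and 6 and were lower on GK15 days 8 and 10. DNMT1, the maintenance methyltransferase, had 231.37, 219.64, 161.76 and 163.24 RPM in ESC (194.0 ± 36.7 RPM, SD, n = 4). BTAG cells had 158.52 RPM in GK15 and 198.66 and 168.14 RPM in aRB27 on day 2, and 113.96 to 162.33 RPM on day 4. The day 6 libraries had 154.49 and 156.13 RPM in GK15 and 115.95, 144.81 and 160.08 RPM in aRB27. Day 2 overlapped with ESC, while day 6 lay just below the lowest ESC library. On days 8 and 10 the GK15 libraries had 126.28, 75.48, 72.67 and 92.76 RPM, a mean of 91.8 ± 24.6 RPM and 47.3% of ESC, without overlap. The difference was -1.09 ± 0.22 (limma, adjusted p = 0.000446), close to the size threshold: it was -0.90 without GK15 day 8 library 2 and -0.997 without ESC library 1, both uncalled. It was also short of the threshold under quantile normalization (-0.98), by edgeR on recovered reads (-0.9995) and among MS162 libraries alone (-0.85). The slope of -0.13 ± 0.03 log2 per day (adjusted p = 0.00655) stood just past its size threshold, 1 log2 unit over 8 days. It was -0.10 after both median-of-ratios scaling and quantile normalization. It was between -0.1115 and -0.125, short of the threshold, without each of aRB27 day 2 library 1, the GK15 day 4 library, GK15 day 6 library 3, GK15 day 8 library 2 and GK15 day 10 library 1.

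UHRF1, the reader that guides DNMT1, varied more between libraries of a group. ESC had 49.27, 22.44, 12.31 and 50.1 RPM. BTAG cells had 28.82, 41.48 and 58.0 RPM on day 2, 32.0, 27.06 and 33.63 RPM on day 4, and 10.83, 21.7, 8.04, 7.62 and 29.77 RPM on day 6, GK15 first. On GK15 days 8 and 10 it was 14.86, 10.53, 6.23 and 6.03 RPM. The ESC and late ranges overlapped through ESC library 3, and the 2 libraries of day 10 were the lowest of all 24. The late mean of 9.41 RPM was 28.1% of the ESC mean (log2 difference -1.61 ± 0.43, limma, adjusted p = 0.00421). The slope was -0.33 ± 0.06 log2 per day (adjusted p = 0.000754) and -0.31 under both scalings named above. On aRB27 day 6 the difference of -1.16 ± 0.46 missed the threshold (adjusted p = 0.0544). It was -1.76 (adjusted p = 0.00435) without aRB27 day 6 library 4 and -1.55 (adjusted p = 0.00944) without ESC library 3.

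Both genes are known to peak in cells that replicate DNA. The summed level of 21 S-phase genes was 2175 to 3382 RPM in ESC, 2418 to 2626 RPM on GK15 day 6, 1790 to 2183 RPM on day 8 and 1447 to 1637 RPM on day 10. On GK15 days 8 and 10, 6 of 21 were called lower and 0 higher than in ESC, beside 15.7% and 15.4% of all genes, with a median log2 difference of -0.81 beside -0.09 over all genes. CCNE1, a cyclin of S-phase entry, fell by 1.95 on the log2 scale (adjusted p = 4.51e-07), GINS2 by 1.59 (4.42e-06), PRIM1 by 1.5 (0.000482) and RRM2 by 1.48 (8.03e-05, limma). Within BTAG cells 8 of 21 had a called negative slope, beside 12.2% of all genes, led by CCNE1 at -0.26 log2 per day. The part of these genes in the DNMT1 and UHRF1 differences was not tested, and their list was chosen with earlier results of these data known.

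Among the 5-methylcytosine dioxygenases, TET3 fell, TET2 rose early and TET1 was called on no day. TET3 had 13.97, 7.34, 17.14 and 8.62 RPM in ESC (mean 11.8 RPM). BTAG cells had 5.11 RPM in GK15 and 6.43 and 6.82 RPM in aRB27 on day 2, and 1.83, 3.45 and 1.25 RPM on day 4. From day 6 on, the 9 libraries ranged from 0 to 2.35 RPM. All BTAG libraries were below all ESC libraries, although the day 2 difference of -0.83 was not called (limma, adjusted p = 0.225). Both GK15 day 6 libraries were listed at 0, with limits of 1.25 and 1.81 RPM, so the ESC mean was at least 15.9-fold higher than 3 reads over these libraries together, and at least 6.51-fold or 9.42-fold without GK15 day 6 library 1 or 3. On day 4 the log2 difference was -2.02 ± 0.46 (adjusted p = 0.0024), on aRB27 day 6 it was -2.78 ± 0.45 (6.84e-05), and on GK15 days 8 and 10 it was -2.92 ± 0.41 (1.08e-05), where the mean of 0.763 RPM was 15.4-fold below ESC and 36.4-fold below without GK15 day 10 library 1. GK15 day 6 was called lower too (limma, adjusted p = 1.78e-05). With a pseudocount of 10 the TET3 calls of day 4, aRB27 day 6 and GK15 days 8 and 10 were lost. Over all settings run the difference ranged from -4.29 to -0.97 on aRB27 day 6 and from -7.98 to -1.10 on GK15 day 6. TET3 was below the filter within BTAG cells, so it has no slope.

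TET2 had 2.5, 3.88, 8.79 and 3.23 RPM in ESC (mean 4.6 RPM). It was 12.09, 13.44 and 15.6 RPM on day 2, 8.5, 13.82 and 14.32 RPM on day 4, and 10.83, 12.66, 6.77, 11.14 and 9.92 RPM on day 6, GK15 first. GK15 day 8 had 10.21 and 18.65 RPM and day 10 had 4.15 and 3.02 RPM. Day 2, GK15 day 6 and day 8 lay above all ESC libraries, day 4 and aRB27 day 6 overlapped with ESC library 3, and day 10 was back within the ESC range. The means of days 2 and 4 were 2.98-fold and 2.65-fold that of ESC. The log2 difference was +1.46 ± 0.39 on day 2 (limma, adjusted p = 0.0107), +1.21 ± 0.39 on day 4 (0.0245), +1.3 ± 0.43 on GK15 day 6 (0.0261), +0.97 ± 0.38 on aRB27 day 6 (0.0513, not called) and +0.67 ± 0.35 on GK15 days 8 and 10 (0.123, not called).

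Several of these TET2 calls turned on a library, on the pseudocount or on the code in the sample names, MS134 or MS162. With a pseudocount of 10 the calls of day 2, day 4 and GK15 day 6 were all lost. Among MS162 libraries alone none was called: day 2 gave +1.15 (adjusted p = 0.141), day 4 +0.89 (0.219) and GK15 day 6 +1.09 (0.289, limma). With the code as a covariate day 2 (adjusted p = 0.0477) and GK15 day 6 (0.0216) were called and day 4 was not (+0.96, 0.099). Fitted on the groups of each comparison alone, day 4 (adjusted p = 0.06) and GK15 day 6 (0.0602) were not called. GK15 day 6 also missed the threshold with no filter (adjusted p = 0.0521). Single libraries mattered too. Day 4 was lost without aRB27 day 4 library 1 or 2 (adjusted p = 0.0505 and 0.0548), ESC library 1 (0.0736) or ESC library 4 (0.054). GK15 day 6 was lost without either of its libraries (adjusted p = 0.0948 and 0.154), ESC library 1 (0.0709) or ESC library 4 (0.0542). On aRB27 day 6 TET2 was called without ESC library 3 (+1.28, adjusted p = 0.00979). The slope within BTAG cells, -0.15 log2 per day (adjusted p = 0.0667), was called without GK15 day 8 library 2 (-0.17, adjusted p = 0.0192).

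TET1 had 73.1, 89.76, 105.06 and 57.65 RPM in ESC. It was 33.47, 53.17 and 51.66 RPM on day 2, 62.67, 43.19 and 54.8 RPM on day 4, and 52.26 to 71.13 RPM on day 6. On GK15 days 8 and 10 it was 56.64, 60.56, 63.67 and 70.14 RPM. The day 2 libraries lay below all ESC libraries, at 56.6% of the ESC mean, and later days overlapped with ESC. The day 2 difference of -0.91 ± 0.21 had an adjusted p of 0.00417 but was under the size threshold. It was -1.06 (adjusted p = 0.00101) and called without ESC library 4. The difference on GK15 days 8 and 10 was -0.34 (limma, adjusted p = 0.151) and the slope +0.08 log2 per day (adjusted p = 0.0612).

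Counted over the 8 members, 1 was called higher and 2 lower on day 2, where 10.5% and 5.51% of all tested genes were called higher and lower (16% in either direction). On day 4 it was 1 higher and 3 lower, beside 12.9% and 9.13% (22.1%). On GK15 day 6 it was again 1 higher and 3 lower, beside 14% and 10.8% (24.8%), and on aRB27 day 6 1 higher, DNMT3L in place of TET2, and 3 lower, beside 12.8% and 13.1% (25.9%). GK15 days 8 and 10 had 1 higher and 5 lower, beside 15.4% and 15.7% (31.1%). Within BTAG cells 1 member had a called positive and 3 a called negative slope, beside 7.14% and 12.2% (19.4%). No member was called between days 8 and 10 and day 6 in GK15, where 0.234% of genes were, or between the media over days 2, 4 and 6, where 0.0841% were. At an unadjusted p under 0.05 limma gave 2 members in the former, DNMT1 and DNMT3B, and 0 in the latter, and edgeR and DESeq2 on recovered reads called 0 in both. DNMT3L entered these counts only through the late libraries in which it was high. Without it, the counts of members called higher on aRB27 day 6, on GK15 days 8 and 10 and for a positive slope were all 0. TET2 reached the filter's 10 RPM only in induced libraries, where it was called higher (at most 8.79 RPM in ESC). TET3 reached it in ESC, BT and AG but in no BTAG library (at most 6.82 RPM), where it was called lower. The TET2 and TET3 calls are thus a description too. With no filter they stayed, except TET2 on GK15 day 6.

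**Figure D3:**
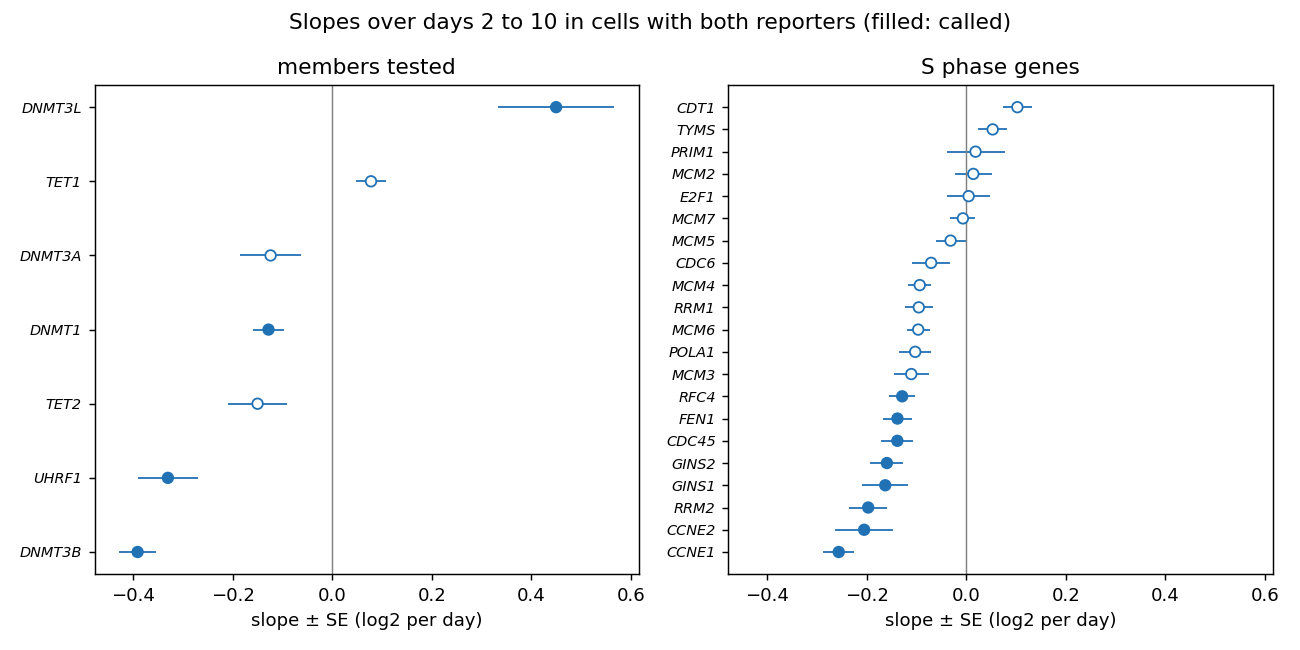
Slopes in log2 per day over the 15 BTAG libraries of days 2 to 10 (limma, medium as covariate) for the members on the left and the 21 S-phase genes on the right, with the standard error as the bar and filled points for called slopes. DNMT3B (-0.39), UHRF1 (-0.33) and DNMT1 (-0.13) descend and DNMT3L (+0.45) ascends; DNMT3L entered this fit only through GK15 day 8 library 2 and day 10 library 2, in which it is high, and TET3 was below the filter and is not shown.

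With the 9 libraries of doubtful label added as labelled, 0 members were called on day 2, 2 on day 4, 0 on GK15 day 6, 4 on aRB27 day 6 and 6 on GK15 days 8 and 10, and 4 had a called slope. The set-aside ESC library had 245.71 RPM of DNMT3B and the set-aside GK15 day 6 library with little PRDM1 had 651.89 RPM. The set-aside aRB27 libraries of days 8 and 10 had 44.93 and 46.97 RPM of DNMT3B and 18.14 and 13.05 RPM of DNMT3L.

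Cells with only the PRDM1 reporter had higher DNMT3A, DNMT3B, TET1 and TET3 than BTAG cells of the same days in aRB27. DNMT3A was 50.91 RPM in BT cells on day 2 and 24.89 and 49.56 RPM on day 4, against 8.76, 12.18, 9.79 and 13.08 RPM in BTAG cells. TET1 was 175.26, 106.51 and 140.73 RPM in BT cells, against 53.17, 51.66, 43.19 and 54.8 RPM. TET3 was 14.69, 10.95 and 15.92 RPM, against 6.43, 6.82, 3.45 and 1.25 RPM. In all of these the BT libraries lay above all BTAG libraries. DNMT3B was 173.21, 327.99 and 235.15 RPM, against 185.8, 131.59, 81.19 and 51.69 RPM, and its day 2 values overlapped.

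The differences of BT from BTAG were +1.87 ± 0.39 for DNMT3A (limma, adjusted p = 0.00177), +1.52 ± 0.21 for TET1 (3.51e-05), +1.60 ± 0.46 for TET3 (0.0186) and +1.11 ± 0.26 for DNMT3B (0.00466). Thus 4 of 8 members were called higher and 0 lower, where 8.03% of all genes were called higher, 6.94% lower and 15.0% in either direction. DNMT3B was under the size threshold without aRB27 BTAG day 2 library 2 (+0.99), BTAG day 4 library 2 (+0.95) or BT day 4 library 1 (+0.995), and TET3 missed the test without BTAG day 4 library 2 (adjusted p = 0.0764) or BT day 4 library 2 (0.062). The TET3 call was also lost with a pseudocount of 0.1 or of 10. DNMT3L was listed at 0 in all 3 BT libraries. With the doubtful libraries as labelled, 1 member was called.

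Set against ESC, BT cells had lower DNMT3B and higher TET2. DNMT3B was 3.96-fold lower than in ESC (mean 245.5 RPM, log2 difference -2.11 ± 0.26, limma, adjusted p = 7.86e-06). TET2, at 32.11, 10.45 and 24.96 RPM, was 4.89-fold higher (+2.21 ± 0.39, adjusted p = 0.000327), with all BT libraries above all ESC libraries. DNMT3A, at 62.4% of the ESC mean, was not called (-0.63, adjusted p = 0.263), nor was TET3 (+0.30, adjusted p = 0.694). TET1, at 1.73-fold the ESC mean, was under the size threshold (+0.88 ± 0.21, adjusted p = 0.00495) and past it without ESC library 3 (+1.01, adjusted p = 0.00195). So 1 member was called higher and 1 lower, where 10.9% and 6.99% of all genes were (17.8%). Adding the doubtful libraries left 2 calls.

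In AG cells, 1 library of aRB27 day 2 and 1 of GK15 day 4, DNMT3A stood near its ESC level. It was 58.59 and 54.09 RPM, against 8.76, 12.18 and 10.67 RPM in the BTAG libraries of the same day and medium. Neither AG library overlapped with those, and both lay within the ESC range of 50.49 to 76.19 RPM. The difference from BTAG was +2.32 ± 0.46 (limma, adjusted p = 0.00186) and that from ESC -0.23 (adjusted p = 0.789). It was the sole member called against BTAG, where 5.05% of all genes were called higher, 6.02% lower and 11.1% in either direction. TET3, at 14.44 and 11.06 RPM, had a difference of +1.55 ± 0.55 that missed the threshold (adjusted p = 0.0752).

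DNMT3B was 269.84 and 144.33 RPM in AG cells. Against ESC it was 4.69-fold lower (log2 difference -2.26 ± 0.29, limma, adjusted p = 1.83e-05). TET2, at 13.2 and 12.7 RPM, was 2.82-fold higher than in ESC (+1.44 ± 0.43, adjusted p = 0.0305). This TET2 call was lost without ESC library 1, 2 or 4 (limma, adjusted p = 0.0804, 0.0537 and 0.0588) and with a pseudocount of 10. These calls, 1 higher and 1 lower, compare with 7.23% and 3.81% of all genes (11%). With the doubtful libraries as labelled no member was called in AG cells against BTAG or ESC.

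**Figure D4:**
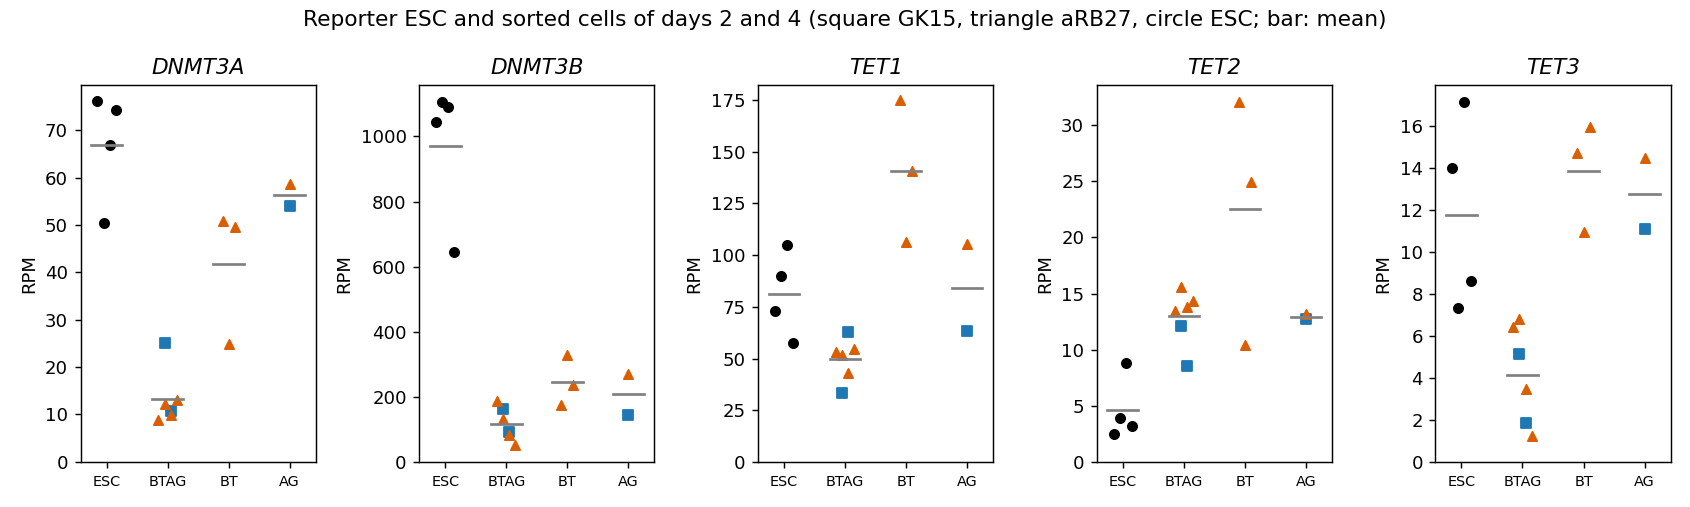
RPM of DNMT3A, DNMT3B, TET1, TET2 and TET3 in single libraries of reporter ESC and of BTAG, BT and AG cells of days 2 and 4, with bars at the means of these libraries. DNMT3A is near the ESC level in AG cells and lowest in BTAG cells, TET1 is highest in BT cells, and DNMT3B is below the ESC libraries in all sorted groups.

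Markers of other cell types moved with these gates. The summed level of 11 endoderm genes was 2715 to 4414 RPM in BT and 667.2 to 1708 RPM in BTAG cells. In BT 8 of 10 tested were called higher, beside 8.03% of all genes. SOX17, which is in the germ cell list too, gave 597.42 to 1190.07 RPM of this sum in BTAG cells. APOB, AFP and TTR reached no more than 1.17, 1.98 and 2.49 RPM in BTAG cells. The sum of 11 mesoderm and stroma genes was 2713 to 3127 RPM in AG and 31.6 to 369.9 RPM in BTAG cells. HAND1 alone gave 2459.06 to 2541.34 RPM of the AG sum. Of 7 tested, 5 were called higher and 1 lower in AG, beside 5.05% and 6.02% of all genes. The sum of 9 amnion and trophoblast genes was 992.5 to 1248 RPM in AG and 230.9 to 560.6 RPM in BTAG cells, with 4 of 6 called higher, beside the same 5.05% of all genes. Their part in the differences of the methylation enzymes was not tested. The marker lists were chosen with earlier results of these data known, so their counts are a description.

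The reporter ESC and the 5 ESC libraries without transgenes did not differ by a call in any member, where 0.200% of 9481 tested genes were called; edgeR called 0 members and DESeq2 called DNMT3B. At an unadjusted p under 0.05 limma gave 2 of the 6 members tested, DNMT3B and TET3. DNMT3B was 3366.71, 1481.64, 1443.61, 1822.57 and 1838.63 RPM without transgenes, above all reporter ESC libraries (mean 1991 ± 791 RPM, SD, n = 5). The limma difference of reporter ESC was -0.99 ± 0.30 (adjusted p = 0.211). TET3 was 24.57, 8.3, 22.39, 39.34 and 32.17 RPM and overlapped with the reporter lines. DNMT3L had 3 reads in the 681F library and 0 in the others. TET2 stood at 0.91, 0.36, 2.71, 2.44 and 1.04 RPM. The sample-name codes of these libraries differ from those of the reporter lines, so line and code cannot be told apart.

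Ranked by mean over the 14 groups of monkey libraries, DNMT3B ran from ESC without transgenes down to GK15 day 10. The ranges of its neighbouring groups overlapped in 5 of 13 steps. For DNMT3A the ESC groups and AG cells led, BT cells followed, GK15 day 2 BTAG cells came next and all other BTAG groups last, with 9 of 13 steps overlapping. TET3 also had the ESC, BT and AG groups above all BTAG groups (9 overlaps). TET1 (8 overlaps) and TET2 (8 overlaps) were highest in BT day 2 cells, and TET2 was lowest in ESC without transgenes. DNMT1 (9 overlaps) and UHRF1 (9 overlaps) were highest in the AG library of GK15 day 4 and lowest on GK15 day 10. For DNMT3L 11 of 13 steps overlapped, with GK15 day 10 in front and groups at 0 counted as overlapping. Both AG groups, BT day 2 and the GK15 BTAG groups of days 2 and 4 are single libraries without a range. A step between such groups compares single values, and no overlap counts over all genes are given. The counts therefore do not measure how distinct an order is.

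Over the 24 libraries, DNMT3A and DNMT3B had a Pearson r of 0.84 in log2(RPM + 1), DNMT3B and TET3 of 0.81, and UHRF1 and DNMT3L of -0.74. These are descriptions, since libraries share their groups, depth and scaling. Among 9981 named genes of the fit, those most alike were JADE1 (0.95), SDC3 (0.95) and MYOZ3 (0.94) for DNMT3B, TNIK (0.94), PRKAG2 (0.93) and NOL4L (0.93) for DNMT3A, and CBFA2T3 (0.90), TCL1B (0.89) and ALK (0.87) for DNMT3L. For DNMT1 they were CENPF (0.88), KPNA2 (0.86) and MCM10 (0.86), and for UHRF1 HMGN2 (0.93), HNRNPA2B1 (0.93) and SKP2 (0.91). TET1 had GAL3ST1 (0.83), MAL2 (0.83) and ANXA4 (0.81), TET2 had ENTPD7 (0.79), TMEM263 (0.77) and CACFD1 (0.76), and TET3 had PCBD1 (0.94), CACHD1 (0.93) and EFNB1 (0.93).

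Genes that act with the enzymes are given by list. The lists were chosen with earlier results of these data known, so their counts are a description. They stand beside 15.4% of all genes called higher and 15.7% called lower on GK15 days 8 and 10 against ESC. On GK15 days 8 and 10 against ESC, 1 of 8 tested maintenance partners was lower and 0 higher (median log2 difference -0.14, all genes -0.09): PCNA, the replication clamp, fell from 795.6 to 335.8 RPM (-1.16 ± 0.28, limma, adjusted p = 0.00189). Of 8 imprint and repeat protection genes 2 were lower and 0 higher (median -0.25). ZNF445, a zinc-finger protein that protects imprints, fell from 20.3 RPM in ESC to 4.83 RPM on day 2 and 1.52 RPM on day 4. On GK15 days 8 and 10 it was 0.463 RPM (-3.92 ± 0.37, limma, adjusted p = 6.12e-08). ZNF445 reached the filter's 10 RPM in no BTAG library (at most 6.51 RPM), so this call is a description. DAXX, a histone chaperone, fell from 106.3 to 53.3 RPM (limma, adjusted p = 0.000662). Of 9 tested genes in a list of MBD-family proteins and other methyl-CpG readers, 1 was higher (median +0.28). It was MBD6, listed by its family, from 18.1 to 43.7 RPM (+1.23 ± 0.31, limma, adjusted p = 0.00257). These data do not show whether MBD6 binds methylated CpG.

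ZNF445, like DNMT3A, had higher levels in BT and AG than in BTAG cells. It was 17.3 RPM in BT and 33.2 RPM in AG cells, and was called higher than in BTAG cells in BT (+2.33 ± 0.41, limma, adjusted p = 0.000365) and in AG (+3.41 ± 0.48, 6.99e-05). As ZNF445 stayed below the filter in all BTAG libraries, these calls are a description too. UHRF2, the paralog of UHRF1, was lower in BT than BTAG cells, at 105.1 against 250.0 RPM (-1.23 ± 0.15, adjusted p = 9.61e-06). ZBTB38, a methyl-CpG reader, was higher in BT, at 58.7 against 13.2 RPM (+2.05 ± 0.31, adjusted p = 7.65e-05).

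Base excision repair replaces the bases that TET enzymes oxidise. Of its 15 genes tested, 2 were higher and 2 lower on GK15 days 8 and 10 than in ESC (median -0.38), beside 15.4% and 15.7% of all genes. POLB, the repair polymerase, rose from 44.7 RPM in ESC to 236.4 RPM (+2.37 ± 0.18, limma, adjusted p = 3.44e-09) and increased within BTAG cells by 0.32 log2 per day (adjusted p = 0.000214). GADD45A, a stress gene linked to repair, was 70.8 RPM in reporter ESC and 149.9 RPM on GK15 days 8 and 10 (+1.06, limma, adjusted p = 0.00364). Its mean was 48.24 RPM on day 2, 50.56 RPM on day 4 and 20.94 RPM in ESC without transgenes. NEIL3, a DNA glycosylase, fell from 16.01 to 2.81 RPM (-2.18 ± 0.37, limma, adjusted p = 7.37e-05). It reached the filter's 10 RPM only in ESC, so this call is a description. Its highest level was 8.21 RPM in BTAG, 6.87 RPM in BT and 6.13 RPM in AG cells. GADD45B was 15.5 RPM in reporter ESC and 1.34 RPM on GK15 days 8 and 10 (-2.48 ± 0.67, limma, adjusted p = 0.00505). Its range there, 0 to 3.77 RPM, overlapped with that of ESC without transgenes, 0 to 2.89 RPM. The glycosylase TDG had a called slope of -0.16 log2 per day (adjusted p = 0.000272).

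Of 12 genes that supply the methyl donor S-adenosylmethionine, 3 were higher and 2 lower on GK15 days 8 and 10 (median +0.04), beside the same shares of all genes. MTHFD1, a folate-cycle enzyme, fell from 284.6 to 41.2 RPM (-2.74 ± 0.24, limma, adjusted p = 2.67e-08) and stood at 266.9 RPM in AG cells. ADK, adenosine kinase, fell from 105.9 to 34.6 RPM (-1.57, adjusted p = 1.14e-05), and MTR, methionine synthase, rose from 17.0 to 38.2 RPM (+1.11, adjusted p = 0.000704). BHMT, another methyltransferase that makes methionine, ranged from 2.26 to 19.5 RPM on GK15 days 8 and 10 and had no read in any of the 4 ESC libraries.

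Of 10 genes tied to 2-oxoglutarate or to TET proteins, 1 was higher and 3 lower in the same comparison (median -0.80). CXXC4, which binds TET2 and is known to lower its protein, fell from 10.7 to 0.055 RPM (-3.38 ± 0.38, limma, adjusted p = 5.81e-07). CXXC4 reached the filter's 10 RPM in no BTAG library (at most 5.84 RPM), so this call is a description. D2HGDH, which clears the TET inhibitor 2-hydroxyglutarate, rose from 18.4 to 80.6 RPM (+2.17 ± 0.25, adjusted p = 1.05e-06). IDH2 (-1.58, adjusted p = 4.66e-06) and OGDH (-1.27, adjusted p = 3.53e-05), enzymes that make and consume 2-oxoglutarate, were lower.

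Of 12 genes listed as regulators of the DNMT3 genes, 5 were higher and 6 lower on GK15 days 8 and 10 (median -0.07). PRDM1 and TFAP2C are the sorted reporters, so their rise is set by the gate. PRDM14, known in mouse as a repressor of Dnmt3b and named here after its values were seen, fell from 141.6 RPM in ESC to 39.5 RPM (-1.89 ± 0.35, limma, adjusted p = 0.000207), in the same direction as DNMT3B. It was near 0 in BT cells (0 to 1.49 RPM) and lower than in BTAG cells of the same days (-4.49 ± 0.39, adjusted p = 1.5e-07). SOX2, a pluripotency factor, fell from 355.2 to 3.33 RPM (-6.46 ± 0.46, adjusted p = 2.08e-09).

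Of 18 listed germ cell genes known to be silenced by promoter methylation, 17 were in the table and 0 passed the filter. Their summed level was 7.20 to 13.8 RPM in ESC, 3.40 to 20.4 RPM in BTAG, 3.0 to 6.5 RPM in BT and 2.90 to 5.50 RPM in AG cells, so the ranges of ESC and BTAG overlapped. SYCP1, a protein of the synaptonemal complex named here after its values were seen, had no read in any ESC library and 0 to 10.21 RPM on GK15 days 8 and 10. Being below the filter, it was not tested.

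In mouse, Dnmt3l was higher on day 6 in both libraries. On the mouse genome build GRCm38, Dnmt3l lies at chr10:78041947-78063622 on the plus strand. It had 6 and 1 reads on day 4 (2.65 and 0.44 RPM) and 26 and 33 reads on day 6 (10.91 and 13.32 RPM), without overlap (log2 difference +2.51 ± 0.52, limma over 8255 genes, adjusted p = 0.0267). It passed the filter only through the 2 day 6 libraries, so this call is a description. With no filter the adjusted p was 0.312, and with a pseudocount of 10 the difference was +0.94, under the size threshold. Of all genes 1.20% were called higher, 1.39% lower and 2.59% in either direction. Tet2 and Tet3 were below the filter.

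None of the other orthologs was called. Dnmt3a was 20.31 and 19.89 RPM on day 4 and 28.12 and 25.43 RPM on day 6 (+0.39 ± 0.23, adjusted p = 0.384). Dnmt3b was 12.81 and 5.3 RPM, then 7.97 and 12.51 RPM (+0.24, adjusted p = 0.813), and overlapped. Dnmt1 was 213.74 and 213.88 RPM, then 194.75 and 203.82 RPM, Uhrf1 28.7 and 16.79 RPM, then 22.66 and 20.58 RPM, and Tet1 144.85 and 142.74 RPM, then 182.57 and 152.16 RPM (+0.21, adjusted p = 0.436). Tet2 lay between 1.26 and 2.83 RPM, and Tet3 had 2.21 and 1.77 RPM on day 4 and 0 and 0.40 RPM on day 6. No mouse stem cells are among the libraries, the tables of the species were scaled separately, and no test was made across them.

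**Figure D5:**
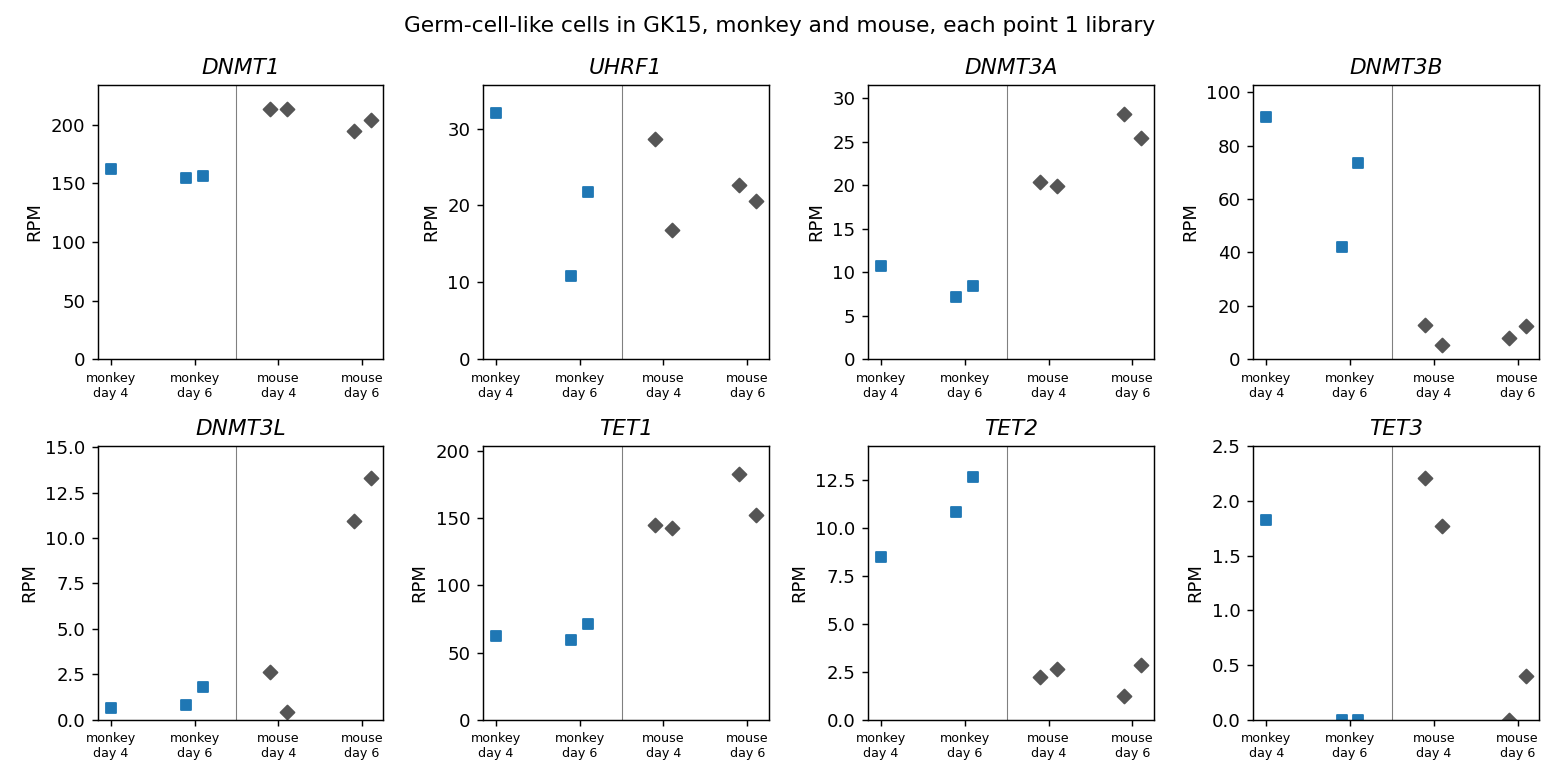
RPM of each member in single GK15 libraries of days 4 and 6, monkey BTAG cells on the left and mouse cells on the right of each panel. In mouse Dnmt3l is higher on day 6 than on day 4 in both libraries, and the tables of the species were scaled separately.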

How the data were processed

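The authors' deposited tables hold RPM values, scaled to library size, of 3′-end RNA-seq per gene, 1 table per species. Per the submitters' processing notes, cutadapt 1.3, TopHat 1.4.1, Cufflinks 2.2.0 and GRCm38 were used, with no role given; for the monkey build the sources used here give nothing. PCR-amplified reads carry counting error only in the limits given for a count of 0. The 9 libraries of doubtful label were left out by the rule that defines the gene set. The members and lists were chosen with earlier results of these data known.

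From the RPM, log2(RPM + 1) was computed for genes of at least 10 RPM in at least 2 libraries and fitted with limma 3.58.1 (trend, R 4.3.3), in 1 fit of the 24 reporter-line libraries, and in separate fits for the slope within BTAG cells, the ESC lines and mouse. p-values are two-sided and Benjamini-Hochberg adjusted over all genes of the fit. A slope was called at 0.125 log2 per day or more. Whole reads were recovered from the RPM steps (99.38 to 99.80% of values up to 100 steps within 0.1 of a whole read) for edgeR 4.0.16 and DESeq2 1.42.0.

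Named are the 8 members, at most 4 genes per pathway list with the largest called differences in a comparison described, and the 3 genes most correlated with each member. The monkey IDs of all 8 members matched RefSeq genes of the same symbol. Of 703 pairs of monkey libraries, 0 were identical. The fit was checked on simulated data. Alternatives were other pseudocounts (0.1, 10), filters (none, a mean of 20 RPM), scalings, priors, call rules, count models, sets of libraries and the title code as a covariate. How reads of near-identical or overlapping genes were counted is not stated in the labels.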

Additional observations from a re-analysis of the deposited data

Results flagged for a closer look

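In the groups of 4 or 5 ESC libraries, 4 single values stood apart from the rest of their group by the gap relative to the range, out of 15 groups tested, where chance gives about 1 in 20. These were DNMT3B at 644.34 RPM in reporter ESC library 4, DNMT3B at 3366.71 RPM and UHRF1 at 9.38 RPM in CMK6 libraries 1 and 2, and DNMT3L at 0.81 RPM in the 681F library, the sole one of its group above 0. Between day 4 and day 6 in GK15, DNMT3A went down in monkey (-0.41) and up in mouse (+0.40, log2(RPM + 1)). That difference was not tested, and monkey day 4 has 1 library. Among the 9 libraries of doubtful label, 5 had more DNMT3L than any reporter ESC library (up to 18.14 RPM against 0 RPM), and 7 had more TET2 (up to 24.6 RPM against 8.79 RPM).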

How the results depend on the processing

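Of the counts of members called, 264 under an alternative stayed within 1.5 times the reported count and 30 did not. Of values for single genes, 2087 kept their side of the threshold, 84 lost a call, 17 gained 1 and 0 reversed. With the doubtful libraries as labelled the counts were 0 (day 2), 2 (day 4), 0 (GK15 day 6), 1 (BT against BTAG), and 0 for AG against BTAG and against ESC. A mean of at least 20 RPM gave 2 on day 4, 2 on day 6 in each medium, 1 for BT against ESC, 1 for AG against ESC and 0 in mouse, since fewer members are tested. A pseudocount of 10 gave 2 on day 4, 2 on aRB27 day 6, 1 for AG against ESC and 0 in mouse. A log2 difference of at least 2 gave 1 on day 2, 0 for BT against BTAG and 1 for AG against ESC. For AG against ESC, quantile normalization and a fit of its own groups gave 1 each. DESeq2 gave 2 for AG against BTAG, adding TET3 (+1.86, adjusted p = 0.0477), and 1 between the ESC lines, DNMT3B (-1.04, adjusted p = 0.0145). No filter gave 0 in mouse. Causes not given by the construction of a setting were not tested. Leaving out 1 library gave 2 to 4 members for BT against BTAG, 1 to 2 for AG against ESC, 4 to 6 for GK15 days 8 and 10, 4 to 6 for aRB27 day 6, 0 for the ESC lines and 0 to 1 in mouse. DNMT3A and DNMT3B were called on day 4, aRB27 day 6 and GK15 days 8 and 10 under all 15 alternatives run and with each library left out in turn. Among called genes, the share with a positive slope was 36.9% and became 52.1% after median-of-ratios scaling and 52.0% after quantile normalization. On day 2 the share called higher was 65.6% and 54.1% after quantile normalization, and for AG against ESC 65.5% and 52.2%. The median over all genes moved by more than 0.1 in the day 2 comparison (0.05 to -0.06, quantile normalization), days 8 and 10 against day 6 in GK15 (-0.12 to 0.00, median of ratios) and AG against ESC (0.08 to -0.05, quantile normalization). No paired analysis was possible because the labels give no replicate numbers that groups share. Few reads carry the values of DNMT3L, TET3 and, in ESC, TET2, which limits their precision. The AG groups and GK15 days 2 and 4 rest on single libraries, whose spread is taken from the other groups.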
